A study of Mus musculus with 30 samples.

Results

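Amino acid transporter genes were taken as those whose symbol opens with Slc1a, Slc3a, Slc6a, Slc7a, Slc36a, Slc38a or Slc43a followed by a digit. On the arrays, 125 probe sets carried 1 such symbol, and each gene was read on its brightest probe set, by the mean of the 30 arrays. This gave 63 genes of the 18193 genes measured, namely 20 of the Slc6, 15 of the Slc7, 9 of the Slc38, 7 of the Slc1, 4 of the Slc36, 3 of the Slc43 and 2 of the Slc3 family, plus 3 genes on the opposite strand of a carrier gene (Slc7a6os, Slc6a19os and Slc36a1os). The rule went by symbol, so it also took in the noradrenaline, dopamine and serotonin carriers Slc6a2, Slc6a3 and Slc6a4 and the nucleobase carrier Slc43a3. No measured value entered it apart from the mean that chose between probe sets of 1 gene.

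The study followed KH2 mouse embryonic stem cells, grown on feeder fibroblasts, through a course of retinoic acid, a vitamin A derivative with nuclear receptors as its targets. Total RNA was measured on 30 Affymetrix arrays, 3 for each of 10 groups: 8 h, 12 h arrays A-C, 16 h and 24 h arrays A-C, and then 12 h arrays D-F, 24 h arrays D-F, 36 h, 48 h, 60 h and 72 h. The labels call 8 h the baseline and all other groups retinoic acid, used at 0.3 uM in medium with serum and an additive given as NAA, and they do not state whether retinoic acid was present at 8 h. Before lysis all cultures were trypsinised and replated for 30 minutes on gelatin, and the labels name both the adhered cells and the drawn-off medium as the source of the RNA.

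Amino acid carriers of the plasma membrane supply cells with the building blocks of protein and of other metabolites. LAT1 (Slc7a5), LAT2 (Slc7a8), the y+LAT carriers (Slc7a6 and Slc7a7) and the cystine exchanger xCT (Slc7a11) are light chains that reach the membrane only with a partner, the heavy chain 4F2hc (Slc3a2). The CAT carriers (Slc7a1, Slc7a2 and Slc7a3) bring in arginine and lysine and need no such partner. Several carriers are known targets of Atf4, the transcription factor of the amino acid response, and mouse stem cells are known for their need of threonine and glutamine.

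Values are log2 intensities as deposited, so a change of 1 is a factor of 2 in intensity. Array medians lay between 6.34 and 6.39. Spike-in controls separated 12 arrays (8 h, 16 h and A-C) from 18 arrays (D-F and 36 h on): the log2 difference of BioDn and BioC lay at 0.99 to 1.07 in the first array set and at 1.34 to 1.63 in the second, so times were compared within a set. Means under 4.73, the lowest lower quartile of any array, were read as dim, and where 1 of a pair of means is dim the measured change is read as a lower bound and given with the words at least. Changes were tested with limma in 1 fit of all arrays and called at an adjusted p under 0.05 over all genes. Separate cultures are not stated for the arrays of a group, so the p-values reflect the spread among these samples and no more. In bulk RNA, fewer cells of a type and less RNA per cell cannot be told apart. Probe sets differ in brightness for the same amount of RNA, so levels of different genes are not ordered.

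The share of transporter genes called was near that of all genes in most comparisons, so the counts alone say nothing particular about them. Against 8 h, 9 of 63 were called in the 12 h arrays A-C (4 higher and 5 lower), beside 19.5% of all genes (12.9% higher and 6.67% lower). At 16 h, 25 were called (10 higher and 15 lower), beside 43.5% of all genes (25.6% higher and 17.9% lower). In the 24 h arrays A-C, 25 were again called, but 16 higher and 9 lower, beside 39.3% of all genes (23.5% higher and 15.8% lower). The 24 h arrays A-C against the 12 h arrays A-C gave 18 calls (13 higher and 5 lower), beside 32.2% of all genes (17.9% higher and 14.3% lower). Within the second set, 24 h D-F against 12 h D-F gave 19 calls (10 higher and 9 lower), beside 30.8% of all genes (16.0% higher and 14.8% lower). At 36 h there were 33 calls (15 higher and 18 lower), beside 44.5% of all genes (23.1% higher and 21.4% lower). At 48 h there were 30 (10 higher and 20 lower), beside 49.7% (22.4% higher and 27.2% lower). Of the 35 calls at 60 h, 10 were higher and 25 lower, beside 57.2% of all genes (23.6% higher and 33.6% lower). At 72 h, 37 were called (14 higher and 23 lower), beside 60.6% of all genes (26.2% higher and 34.5% lower). The median change at 72 h was -0.14 over the 63 genes and -0.09 over all genes.

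These comparisons share their 8 h or 12 h D-F arrays. In limma's F test across a set, 33 of 63 genes passed in the first set (55.5% of all genes) and 40 in the second (67.1%). Both tests passed for 28 genes and neither for 18, while 5 passed in the first set alone and 12 in the second alone. Of all 18193 genes, 8575 passed both and 4460 neither, while 1518 passed in the first set alone and 3640 in the second alone. The balance of rises and falls depended on the scaling. Centring each array on its median moved all changes by -0.10, -0.19 and -0.19 in the 12 h A-C, 16 h and 24 h A-C groups against 8 h, and gave 2 higher and 9 lower, 4 higher and 25 lower, and 9 higher and 30 lower. In the second set it gave 6 higher and 23 lower at 24 h D-F, 9 and 30 at 36 h, 8 and 28 at 48 h and 10 and 42 at 72 h, with a shift of -0.18 at 72 h. For 24 h A-C against 12 h A-C it gave 12 higher and 12 lower. Quantile normalisation gave 8 higher and 19 lower at 16 h, 12 and 12 at 24 h A-C, and 8 and 12 at 24 h D-F. No member called in the values as deposited and called again after either scaling had changed sign. With centring, the median change of all genes at 72 h went from -0.09 to -0.27. Calls over all genes were not counted after scaling, so the counts after scaling, here and below, say nothing particular about transporter genes.

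**Figure D1:**
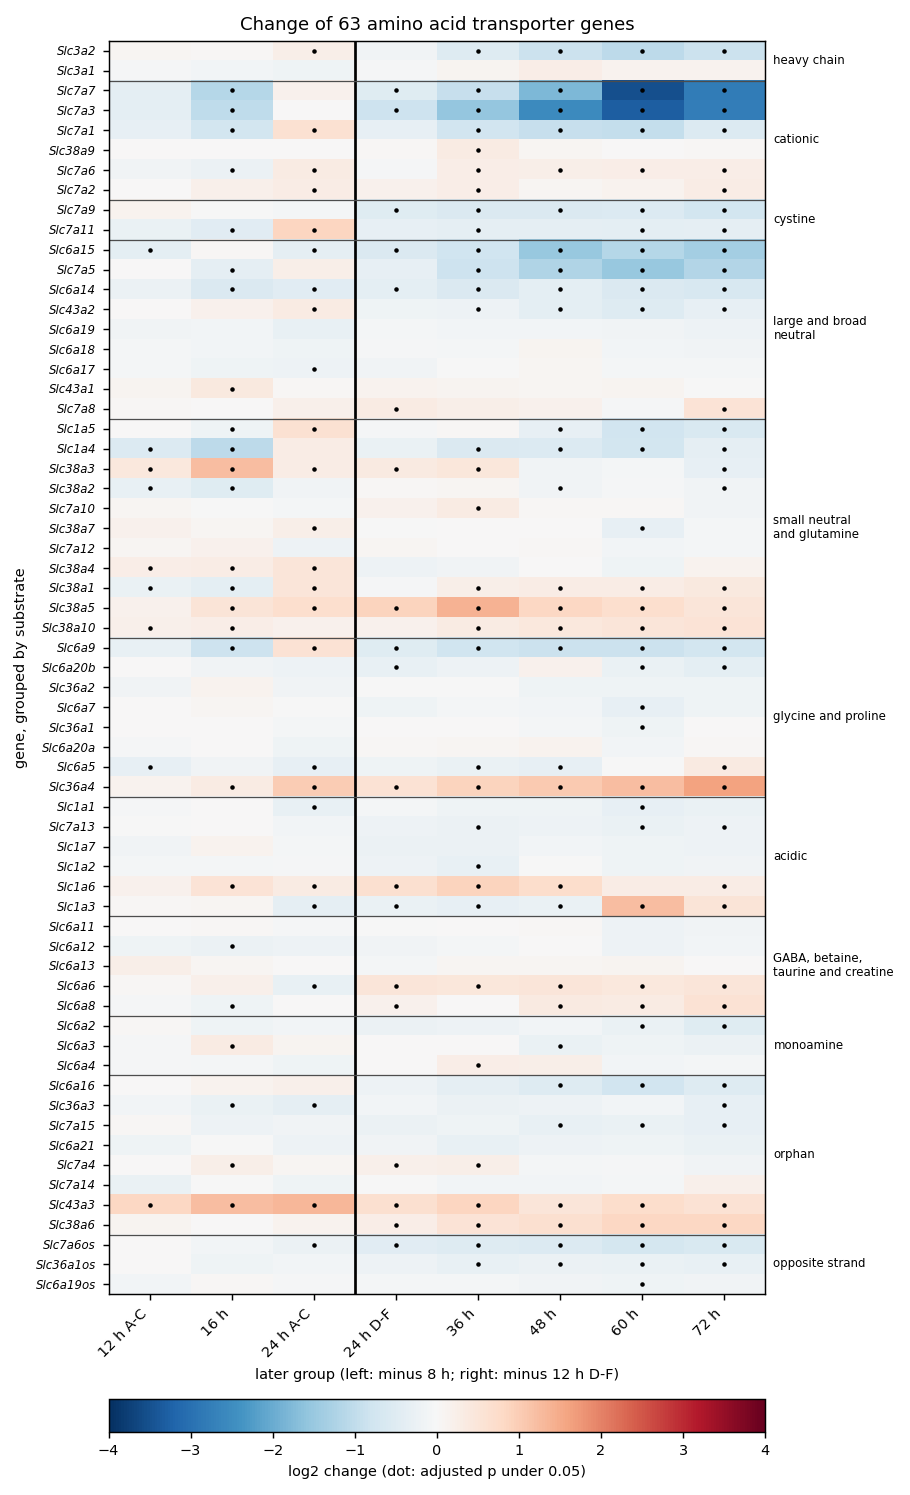
Log2 change of the 63 genes (down the page, grouped by substrate) in each later group, against 8 h on the left and against 12 h D-F on the right; colour gives the change and a dot marks an adjusted p under 0.05. The deepest falls, in Slc7a7 and Slc7a3, grow over the second set to -3.50 and -3.28 at 60 h. As deposited, 15 genes are called lower at 16 h and 9 in 24 h A-C, beside 17.9% and 15.8% of all genes. With centred arrays, which the figure does not show, 25 are lower at 16 h and 30 in 24 h A-C.

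The falls at 72 h were led by the cationic carriers Slc7a7 and Slc7a3 and the large neutral carriers Slc6a15 and Slc7a5. The heavy chain Slc3a2 fell as well. At 72 h against 12 h D-F, 5 of 63 genes changed by at least 1 with no overlap between arrays, beside 9.51% of all genes. Slc7a7, Slc7a3, Slc6a15 and Slc7a5 fell and Slc36a4 rose. Among the 6 genes of the cationic class 3 fell and 2 rose, beside 34.5% of all genes lower and 26.2% higher. The 6 include the lysosomal arginine sensor Slc38a9, which was not called. Of the 2 heavy chains Slc3a2 fell while Slc3a1 did not pass (0.15).

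Slc7a7 encodes y+LAT1, which exchanges cationic for neutral amino acids (chr14:54369442-54420068, GRCm38.p6). It read 8.04, 8.58 and 8.72 at 72 h, against 11.27, 11.30 and 11.14 in 12 h D-F, with no overlap. The change was -2.80 (SE 0.16, adjusted p = 2.91e-13). The group means of Slc7a7 were 11.24 ± 0.08 in 12 h D-F, 10.76 ± 0.22 in 24 h D-F, 10.30 ± 0.34 at 36 h, 9.46 ± 0.12 at 48 h, 7.73 ± 0.37 at 60 h and 8.44 ± 0.36 at 72 h (SD, n = 3 each). The lowest level was at 60 h, with arrays at 7.46, 7.59 and 8.15. Its other probe set changed by -3.59 at 60 h and by -2.80 at 72 h, both called. The return between the last times, 0.71 at 72 h against 60 h (adjusted p = 0.00625), was lost without array A of 60 h (0.57, adjusted p = 0.0536) or array C of 72 h (0.57, adjusted p = 0.0548).

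Slc7a3 encodes CAT3, a carrier of arginine and lysine (chrX:101079146-101090452). It read 8.14, 8.90 and 9.04 at 72 h, against 11.51, 11.49 and 11.40 in 12 h D-F, again with no overlap. The fall was already called in 24 h D-F (-0.83, SE 0.21, adjusted p = 0.00336), and reached -1.56 at 36 h, -2.54 at 48 h, -3.28 at 60 h and -2.78 at 72 h (adjusted p = 2.66e-11). At 60 h array C, at 8.92, stood above arrays A and B, at 7.70 and 7.93. The same array was the highest of its group for Slc7a7, Slc7a5, Slc3a2, Slc7a1, Slc1a4 and Slc6a9. Of the 2 other CAT carriers, Slc7a1 (CAT1) fell by 0.56 at 72 h (SE 0.14, adjusted p = 0.00143), and Slc7a2 (CAT2) rose by 0.28. None of the 3 other probe sets of Slc7a2 was called at 72 h, and the fall of Slc7a1 lost its call when all letters of a time formed 1 group (-0.51, adjusted p = 0.0617).

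Slc7a5 encodes LAT1, which brings leucine and other large neutral amino acids in (chr8:121881146-121907686). It read 10.99, 11.35 and 11.38 at 72 h, against 12.40, 12.45 and 12.42 in 12 h D-F, a change of -1.18 (SE 0.13, adjusted p = 2.95e-08). Its heavy chain Slc3a2 (chr19:8706882-8723369) read 11.33, 11.47 and 11.56 at 72 h, against 12.31, 12.35 and 12.31 in 12 h D-F, a change of -0.87 (SE 0.08, adjusted p = 1.39e-09). Neither gene's groups overlapped. Both fell in steps over the second set: the changes were -0.83 at 36 h, -1.20 at 48 h and -1.51 at 60 h for Slc7a5, and -0.52, -0.87 and -1.04 at the same times for Slc3a2. These genes are bright, with group means from 10.91 to 12.83 for Slc7a5 and from 11.29 to 12.69 for Slc3a2. The light chains LAT2 (Slc7a8) and y+LAT2 (Slc7a6) rose, by 0.53 (adjusted p = 0.000457) and 0.27 at 72 h.

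Slc6a15 encodes B0AT2, a carrier of branched-chain amino acids and proline (chr10:103367808-103419379). It read 6.83, 7.03 and 7.02 at 72 h, against 8.47, 8.21 and 8.25 in 12 h D-F, and the groups did not overlap. The change was -1.35 (SE 0.12, adjusted p = 5.31e-10). The 12 h D-F arrays, its starting point here, lay 1.10 above the 12 h arrays A-C, which read 7.20, 7.22 and 7.20. The 8 h arrays read 7.67, 7.61 and 7.51, so the size of the fall of Slc6a15 rests on the level of 12 h D-F.

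**Figure D2:**
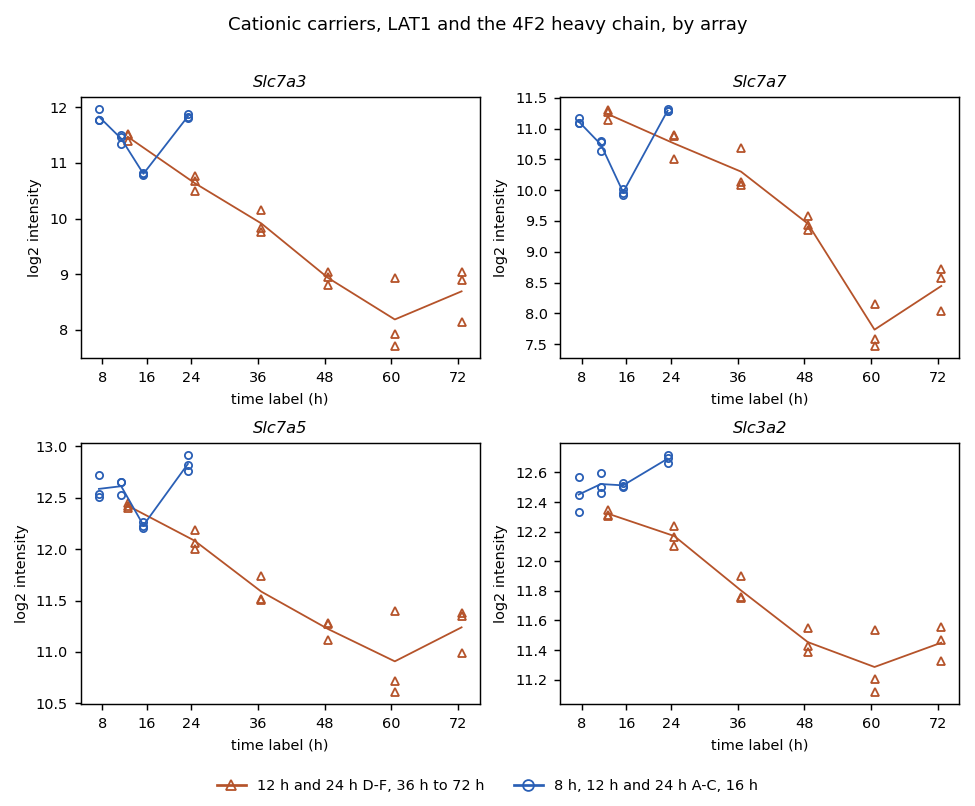
Log2 intensity by array (points) and group mean (lines) against the labelled time in hours for Slc7a3, Slc7a7, Slc7a5 and Slc3a2, with triangles for the second array set and circles for the first. The levels fall in the second set up to 60 h, where 1 of the 3 arrays stands above the other two, and in the first set Slc7a3, Slc7a7 and Slc7a5 are lower at 16 h than at 8 h.

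Markers of other cells moved over the same interval, in which 26.2% of all genes were called higher and 34.5% lower. At 72 h against 12 h D-F, 13 of 14 measured fibroblast markers were higher, and their mean level lay at 10.48 to 11.24 over the 72 h arrays, against 8.21 to 9.10 in 12 h D-F. Of 10 pluripotency markers 9 were lower, with a mean level of 10.10 to 10.41 at 72 h, against 11.80 to 11.88 in 12 h D-F. Of 8 endoderm markers 6 were higher and 1 lower (9.31 to 9.64 at 72 h, against 7.99 to 8.12 in 12 h D-F). Of 9 neural markers 6 were higher and 1 lower (7.86 to 8.02 at 72 h, against 7.13 to 7.15 in 12 h D-F). Of 6 trophoblast markers 2 were higher and 3 lower (8.81 to 9.06 at 72 h, against 8.81 to 9.01 in 12 h D-F). No fibroblast, pluripotency or endoderm marker had a mean under 4.73 in any group. Their part in the transporter changes was not tested.

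Smaller falls at 72 h covered several substrates. Slc7a9, the light chain of the kidney cystine exchanger, fell by 0.74. Slc6a9, the glycine carrier GlyT1, fell by 0.72, and its other probe set was also called lower. Slc1a5, the glutamine exchanger ASCT2, fell by 0.62, while its other probe set was not called (-0.19). Slc1a4, the serine and alanine exchanger ASCT1, fell by 0.36, and both of its other probe sets were called lower (-0.58 and -0.57). Slc43a2, the neutral carrier LAT4, fell by 0.33. Slc6a14, a broad carrier of neutral and cationic amino acids, averaged 4.34 at 72 h and 4.97 in 12 h D-F, and fell by at least 0.63, since its later mean was dim. Its other probe set averaged 3.13 ± 0.06 at 72 h and 5.30 ± 0.09 in 12 h D-F (SD, n = 3 each), and was dim in every other group. Of the genes outside amino acid transport, the noradrenaline carrier Slc6a2 was called lower (-0.47), while 1 of its 3 other probe sets was called higher (0.75) and none lower. The opposite-strand gene Slc7a6os was called lower on its brighter probe set (-0.62) and higher on the other (0.34), so its direction differs between probe sets.

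A group of carriers was low at 16 h and high in the 24 h arrays A-C, and the 24 h arrays D-F lay below the 24 h arrays A-C. Against 16 h, 20 of 63 genes were called in 24 h A-C (13 higher and 7 lower), beside 34.4% of all genes (17.4% higher and 16.9% lower). This comparison was added after the values were seen. Of the 6 cationic carriers 4 were higher and none lower, and of the 11 carriers of small neutral amino acids and glutamine 4 were higher and 2 lower. Those that rose by at least 1 were Slc6a9, Slc7a1, Slc1a4, Slc7a7, Slc7a11 and Slc7a3.

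Slc7a1 (CAT1, chr5:148327410-148399904) read 11.64, 11.90 and 11.46 at 8 h, 10.98, 10.90 and 10.91 at 16 h, 12.30, 12.25 and 12.29 in 24 h A-C, and 11.28, 10.97 and 11.17 in 24 h D-F. No 16 h array overlapped those of 8 h or 24 h A-C. The changes were -0.74 at 16 h against 8 h (SE 0.14, adjusted p = 0.00013), 1.35 at 24 h A-C against 16 h (adjusted p = 8.01e-08) and -1.14 for 24 h D-F against 24 h A-C (adjusted p = 1.08e-06). Of its 2 other probe sets, both were called lower at 16 h and 1 was called higher in 24 h A-C. The difference between 24 h A-C and 8 h, 0.61, lost its call when its probe sets were averaged (0.07) or when all letters of a time formed 1 group (0.04, adjusted p = 0.913), and 1 other probe set was called lower (-0.51).

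Slc1a4 (ASCT1, chr11:20302180-20332713) was also lowest at 16 h within the first set. It read 9.36, 9.41 and 9.22 at 8 h, 8.38, 8.16 and 8.34 at 16 h, 9.72, 9.54 and 9.61 in 24 h A-C, and 8.65, 8.37 and 8.48 in 24 h D-F. The changes of Slc1a4 were -1.04 at 16 h (adjusted p = 1.62e-06), 1.33 at 24 h A-C against 16 h (adjusted p = 9.08e-08) and -1.12 in D-F against A-C (adjusted p = 1.2e-06), each with SE 0.14. Both other probe sets were called the same way at 16 h and at 24 h A-C against 16 h.

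Slc6a9 (GlyT1, chr4:117835258-117869305) read 9.39, 9.57 and 9.21 at 8 h, 8.58, 8.45 and 8.62 at 16 h, 10.12, 9.89 and 9.91 in 24 h A-C, and 8.86, 8.71 and 8.80 in 24 h D-F. The 24 h A-C arrays were the highest and the 16 h arrays the lowest of these. Slc6a9 changed by -0.84 at 16 h, 1.42 at 24 h A-C against 16 h (SE 0.15, adjusted p = 9.91e-08) and -1.18 in D-F against A-C, and its other probe set was called the same way at 16 h (-0.37) and in 24 h A-C against 16 h (0.51). The cystine exchanger Slc7a11 (xCT, chr3:50364936-50499087) was dim on average in every group other than 24 h A-C, where it read 4.85, 5.66 and 5.54. It read 4.13, 3.87 and 4.09 at 16 h, so it rose by at least 1.32 (SE 0.15, adjusted p = 2.85e-07), and its other probe set was also called higher. In 24 h D-F it averaged 3.75.

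Slc7a3 and Slc7a7, which led the late falls, had the same low point at 16 h. Slc7a3 read 10.82, 10.78 and 10.80 there, against 11.77, 11.96 and 11.77 at 8 h (change -1.03, adjusted p = 0.000244), and rose by 1.03 in 24 h A-C against 16 h. Slc7a7 read 9.92, 9.95 and 10.03 at 16 h, against 11.09, 11.18 and 11.09 at 8 h (change -1.15, adjusted p = 2.95e-06), and rose by 1.33 in 24 h A-C against 16 h. None of these groups overlapped with 16 h. Smaller rises in 24 h A-C against 16 h were called for the system A carrier Slc38a1 (0.87), Slc1a5 (0.76), Slc7a5 (0.60), Slc7a6 (0.54) and the system A carrier Slc38a2 (0.36). The other probe set of Slc38a1 was not called (0.12) and that of Slc7a6 was not either (0.06), while that of Slc1a5 was (0.84). Slc3a2, the heavy chain, was not called at 16 h (0.06) or in 24 h A-C against 16 h (0.18, adjusted p = 0.0942).

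**Figure D3:**
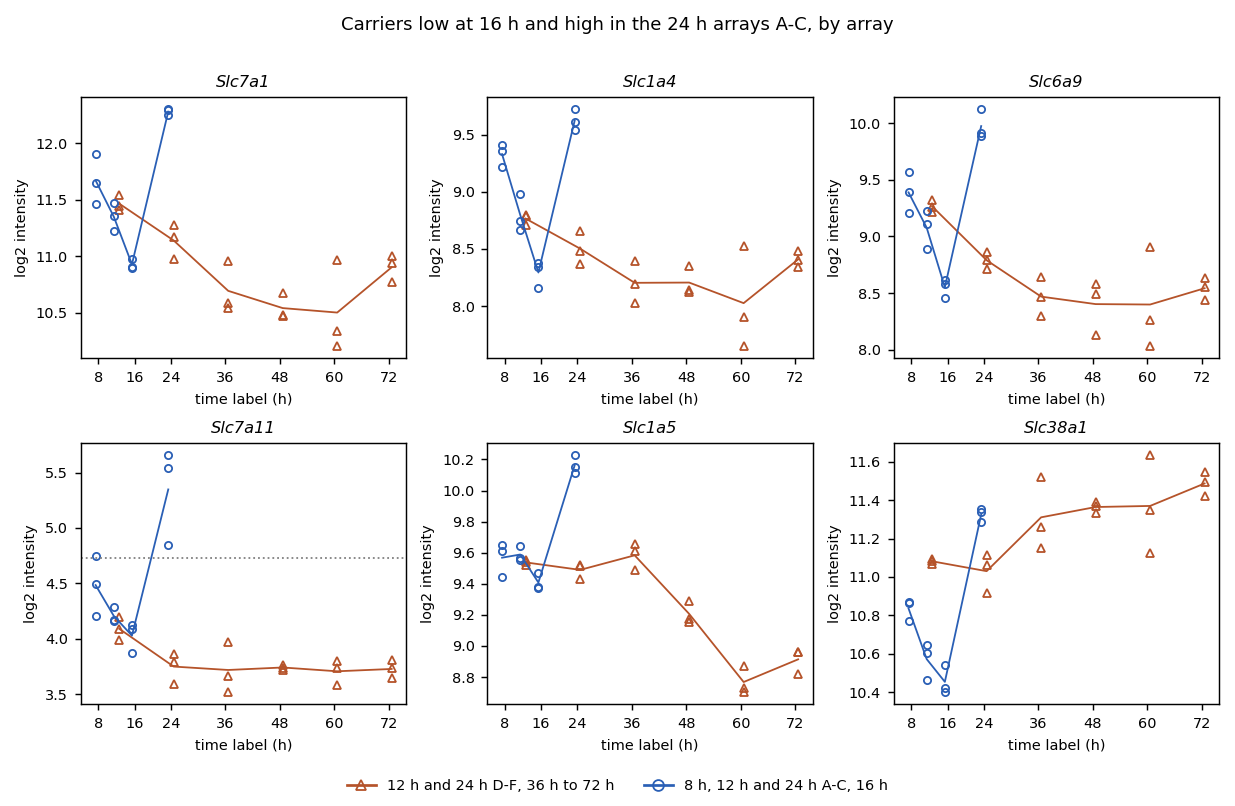
Log2 intensity by array (points) and group mean (lines) against the labelled time in hours for Slc7a1, Slc1a4, Slc6a9, Slc7a11, Slc1a5 and Slc38a1, with triangles for the second array set and circles for the first. In the first set the level is low at 16 h and highest at 24 h, and the 24 h arrays D-F lie below the 24 h arrays A-C in each panel.

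The interval from 12 h to 24 h was measured in both array sets, and its change differed between them in 16 of 63 genes, 3 higher and 13 lower in D-F, beside 19.1% of all genes (8.59% higher and 10.6% lower). The measured change of Slc7a1 was -0.33 (not called) in D-F and 0.93 in A-C, a difference of -1.25 (SE 0.20, adjusted p = 8.95e-05). For Slc6a9 the values were -0.48 in D-F and 0.90 in A-C (difference -1.37), and for Slc1a4 -0.26 in D-F and 0.83 in A-C (difference -1.09). For Slc7a3 they were -0.83 in D-F and 0.40 in A-C (difference -1.23), and for Slc7a7 -0.48 in D-F and 0.55 in A-C (difference -1.03). Of these, the D-F value of Slc1a4 and the A-C value of Slc7a3 were not called by themselves. The taurine carrier Slc6a6 went the other way, with 0.50 in D-F and -0.36 in A-C (difference 0.86, adjusted p = 0.000203). At the single times, 17 genes differed between D-F and A-C at 12 h, 11 higher and 6 lower in D-F, beside 39.0% of all genes. At 24 h 27 differed, 11 higher and 16 lower, beside 33.8% of all genes, and with centred arrays 15 were higher and 14 lower (16 and 15 after quantile normalisation). The labels give D-F and A-C the same times and treatment, so what sets them apart cannot be told from the labels, and the call of 24 h D-F against 24 h A-C for Slc7a7 (-0.54) was lost without array E of 24 h D-F (-0.41, adjusted p = 0.0851).

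**Figure D4:**
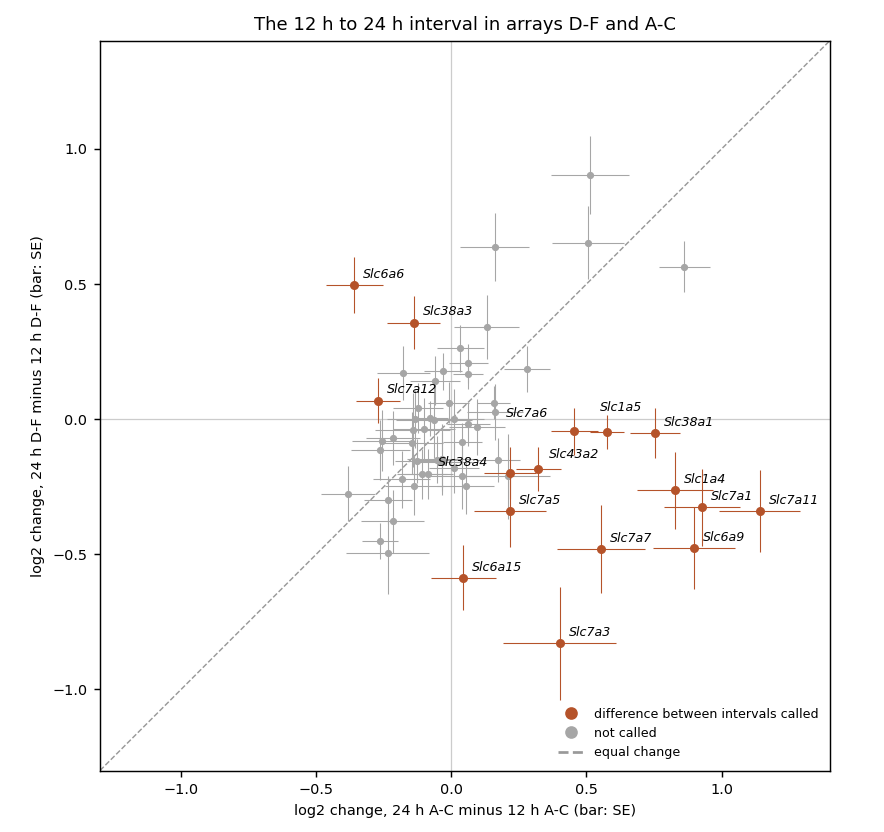
Log2 change of each of the 63 genes from 12 h to 24 h in arrays D-F (vertical axis) against arrays A-C (horizontal axis), with SE bars; coloured points have a called difference between the intervals and the dashed line marks equal change. Slc7a11, Slc6a9, Slc7a1, Slc7a3, Slc1a4 and Slc7a7 lie above 0 in A-C and below 0 in D-F, and Slc6a6 lies on the opposite side; for Slc7a11, with 3 of 4 means dim, the position gives no size.

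Genes of the amino acid response were read over the same arrays. All 16 listed response genes and Atf4 targets were measured. In 24 h A-C against 16 h, 13 were higher and 2 lower, beside 17.4% of all genes higher and 16.9% lower. In 24 h D-F against 24 h A-C 14 were lower and none higher, beside 33.8% of all genes called either way. The difference between the 12 h to 24 h intervals was called lower for 13 and higher for 1. Of all genes, 10.6% were lower and 8.59% higher in that test. The mean level of the list was 10.50 to 10.80 at 8 h, 10.10 to 10.14 at 16 h, 11.05 to 11.18 in 24 h A-C and 9.95 to 10.13 in 24 h D-F. Chac1, which degrades glutathione, rose by 2.53 in 24 h A-C against 16 h (adjusted p = 3.51e-07) and differed by -2.03 in 24 h D-F against 24 h A-C. Trib3, a pseudokinase induced by Atf4, rose by 1.69 and differed by -1.84 in D-F, and Stc2, a secreted stanniocalcin, rose by 1.02 and differed by -1.45. Atf3, a stress-induced transcription factor, rose by 2.12 and differed by -0.32.

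Marker lists were also set side by side over these arrays. Of all genes, 17.4% were called higher and 16.9% lower in 24 h A-C against 16 h. In 24 h D-F against 24 h A-C, 33.8% of all genes were called either way. Of 14 fibroblast markers 1 was higher and 2 were lower in 24 h A-C than at 16 h, with a mean level of 8.66 to 8.77 in 24 h A-C, against 8.63 to 9.13 at 16 h. Of 10 pluripotency markers 1 was higher and 5 were lower (11.16 to 11.42 in 24 h A-C, against 11.56 to 11.60 at 16 h). Of 9 neural markers 3 were higher and 1 lower, of 8 endoderm markers 1 was higher, and of 6 trophoblast markers 4 were higher. In 24 h D-F against 24 h A-C, 7 of 8 endoderm markers were higher and 1 lower (8.20 to 8.30 in D-F, against 7.70 to 7.75 in A-C), and 2 of 14 fibroblast markers were higher (8.35 to 9.18 in D-F, against 8.66 to 8.77 in A-C). Their part in the transporter changes was not tested.

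Promoter windows were searched for TGATGNAA, the core of the amino acid response element that Atf4 binds, on both strands, in windows from 250 bases before to 50 bases after a start, from RefSeq (GRCm38.p6). The search over all members was made after the values were seen. Of the 63 genes, 46 had a window and 17 had none, and the motif was present in 4 of the 46 genes, beside 4.51% of 27025 genes. The 4 were Slc7a11, Slc1a4, Slc7a7 and Slc6a21, the last an orphan carrier. The windows of the first 3 are shown 5′ to 3′ on the gene's strand with the matches in capitals, and those of Slc7a11 and Slc1a4 were chosen after their values were seen. They are chr3:50443564-50443863, chr11:20332664-20332963 and chr14:54417895-54418194, all on the minus strand.
Slc7a11: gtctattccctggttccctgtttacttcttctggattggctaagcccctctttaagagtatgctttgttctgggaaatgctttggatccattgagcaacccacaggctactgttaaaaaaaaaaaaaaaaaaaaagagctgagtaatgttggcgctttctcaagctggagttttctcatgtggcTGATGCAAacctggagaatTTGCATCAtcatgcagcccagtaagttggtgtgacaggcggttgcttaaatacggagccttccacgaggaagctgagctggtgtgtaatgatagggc
Slc1a4: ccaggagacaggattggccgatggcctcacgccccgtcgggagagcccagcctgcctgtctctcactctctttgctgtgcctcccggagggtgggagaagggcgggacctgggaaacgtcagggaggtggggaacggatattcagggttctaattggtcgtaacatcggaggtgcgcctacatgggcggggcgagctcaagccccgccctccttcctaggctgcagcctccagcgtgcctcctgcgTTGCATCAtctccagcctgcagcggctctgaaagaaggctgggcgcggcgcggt
Slc7a7: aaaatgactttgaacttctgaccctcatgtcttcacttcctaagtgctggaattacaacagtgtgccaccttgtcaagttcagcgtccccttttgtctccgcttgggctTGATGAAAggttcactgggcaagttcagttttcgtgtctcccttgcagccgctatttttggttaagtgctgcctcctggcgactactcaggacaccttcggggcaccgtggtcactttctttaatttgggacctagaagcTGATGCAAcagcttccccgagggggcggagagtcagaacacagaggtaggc
The matches in Slc7a11 begin at positions -66 and -47 from the start and read TGATGCAA on opposite strands. Slc1a4 has TGATGCAA once, on the opposite strand, at position -4. Slc7a7 has TGATGAAA at position -141 and TGATGCAA at position -1. The direct repeats of AGGTCA and of AGTTCA with a spacer of 5 bases, known from retinoic acid receptors, were in none of the 46 genes (0.01% and 0.03% of all genes). A match describes the letters and was not tested as a binding site, and the promoter of Slc36a4 held none of these motifs.

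In 24 h A-C against 8 h, Slc36a4 and Slc43a3 were the 2 of 63 genes that rose by at least 1 with no overlap, beside 2.32% of all genes. Slc36a4 encodes PAT4, a carrier of proline and tryptophan (chr9:15709738-15742388). It read 8.21, 8.32 and 8.05 in 24 h A-C, against 7.20, 7.20 and 7.15 at 8 h, a change of 1.01 (SE 0.09, adjusted p = 7.16e-09). In the second set it read 8.98, 8.91 and 8.97 at 72 h, against 7.37, 7.35 and 7.34 in 12 h D-F, a change of 1.60 (SE 0.09, adjusted p = 3.01e-13). The groups did not overlap in either set, and the group mean of Slc36a4 was higher at each time of the second set: 7.35 in 12 h D-F, 7.92 in 24 h D-F, 8.26 at 36 h, 8.41 at 48 h, 8.59 at 60 h and 8.96 at 72 h. The step from 60 h to 72 h was called (0.37, adjusted p = 0.0124), but the 60 h arrays spread over 8.31, 8.80 and 8.65. This step was not read with arrays left out.

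Slc43a3 (chr2:84936545-84958509) read 7.53, 7.72 and 7.29 in 24 h A-C, against 6.33, 6.04 and 6.16 at 8 h, with no overlap. It had risen by 0.83 in 12 h A-C and 1.25 at 16 h, and by 1.33 in 24 h A-C (SE 0.13, adjusted p = 2.45e-08). In the second set it was 0.57 higher at 72 h than in 12 h D-F. The other 2 Slc43 genes, the neutral carriers LAT3 (Slc43a1) and LAT4 (Slc43a2), had measured differences of 0.06 and 0.33 in 24 h A-C against 8 h, of which only that of Slc43a2 was called.

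Glutamine carriers of the Slc38 family had separate courses. Slc38a5, the system N carrier SNAT5, read 8.14, 8.42 and 8.07 at 36 h, against 6.72, 6.89 and 6.86 in 12 h D-F, a rise of 1.38 (SE 0.14, adjusted p = 2.11e-08). It then stood at 7.65 at 48 h, 7.49 at 60 h and 7.32 at 72 h, still 0.50 above 12 h D-F. The other system N carrier, Slc38a3 (SNAT3), read 8.65, 8.91 and 8.78 at 16 h, against 7.57, 7.44 and 7.62 at 8 h, a rise of 1.23 (SE 0.10, adjusted p = 4.68e-10), and fell by 0.95 in 24 h A-C against 16 h. Neither pair of groups overlapped, but the other probe set of Slc38a3 was not called in these comparisons. Slc38a6 (SNAT6), whose substrate is less settled, rose by 0.26 in 24 h D-F and by 0.82 at 72 h (SE 0.09, adjusted p = 1e-08). Slc38a1 rose by 0.41 at 72 h on its brighter probe set and fell by 0.36 on the other, both called, so its direction differs between probe sets. Slc38a10 rose by 0.55 at 72 h, and with the mean of its probe sets the change was 0.04 and no longer called.

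Among the acidic carriers, Slc1a3 (GLAST, the glutamate carrier of radial glia and astrocytes) read 9.27, 9.31 and 9.18 at 60 h, against 8.06, 8.00 and 8.01 in 12 h D-F. The rise of Slc1a3 was 1.23 (SE 0.10, adjusted p = 1.29e-10), and 3 of its 5 other probe sets were called higher. It fell by 0.72 at 72 h against 60 h (adjusted p = 4.21e-05), where 7 of 63 genes were called (6 higher and 1 lower), beside 11.2% of all genes (8.54% higher and 2.67% lower). With centred arrays or after quantile normalisation 5 were higher and 2 lower. Slc1a6 (EAAT4), a glutamate carrier of Purkinje cells, rose by 0.91 at 36 h and by 0.31 at 72 h. The astrocyte glutamate carrier Slc1a2 averaged 5.58 in 12 h D-F and 5.45 at 72 h on its brightest probe set. However, 2 of its 4 other probe sets were called higher at 72 h, by up to 1.37, so its direction differs between probe sets. The largest of these rises was from 4.75 in 12 h D-F to 6.11 at 72 h. Among carriers of GABA, betaine, taurine and creatine, 2 of 5 rose at 72 h, beside 26.2% of all genes higher. The creatine carrier Slc6a8 rose by 0.59, with its other probe set called higher too. The taurine carrier Slc6a6 rose by 0.47, with 1 of 3 other probe sets called. Slc6a8 averaged 8.96 in 12 h D-F, 9.28 in 12 h A-C and 9.55 at 72 h. Slc6a6 averaged 10.47 in 12 h D-F, 10.93 in 12 h A-C, 10.97 in 24 h D-F and 10.94 at 72 h. The size of both rises rests on the level of 12 h D-F.

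**Figure D5:**
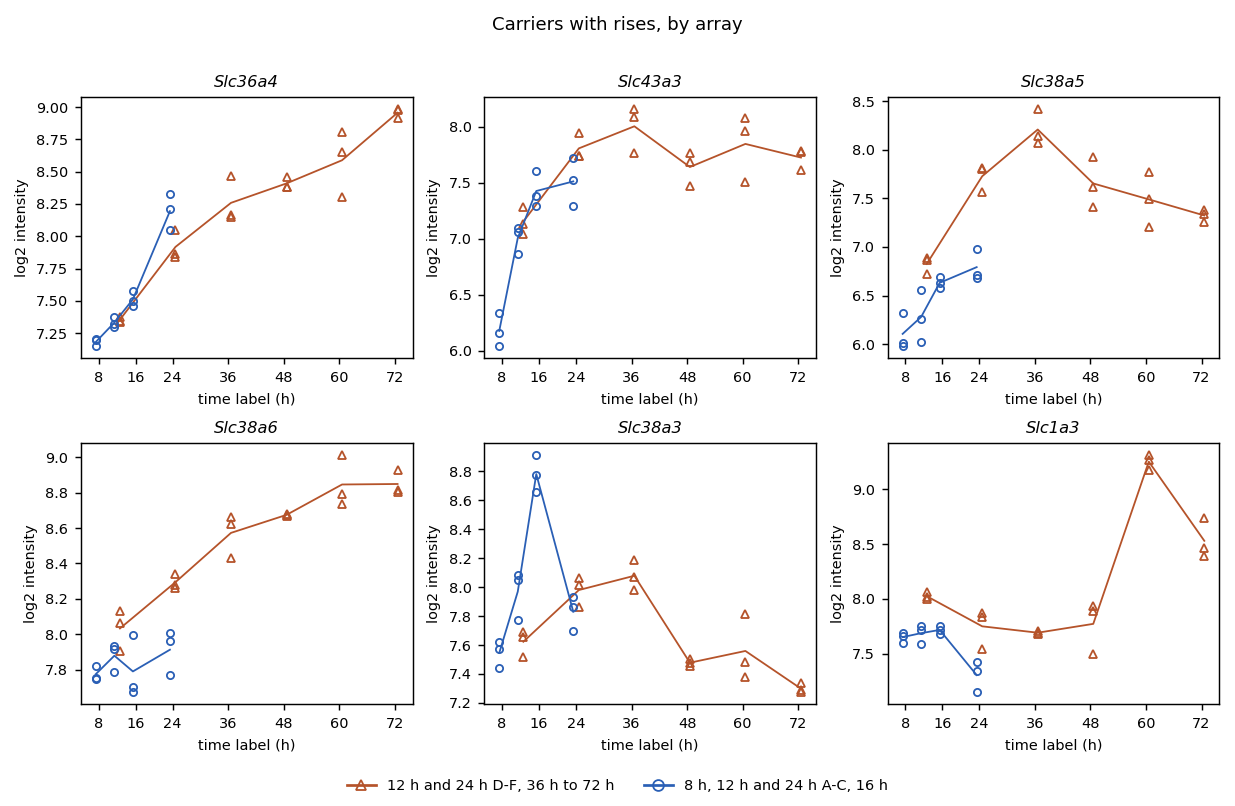
Log2 intensity by array (points) and group mean (lines) against the labelled time in hours for Slc36a4, Slc43a3, Slc38a5, Slc38a6, Slc38a3 and Slc1a3, with triangles for the second array set and circles for the first. Slc36a4 climbs to 8.96 at 72 h, Slc38a5 is highest at 36 h (8.21), Slc38a3 at 16 h (8.78) and Slc1a3 at 60 h (9.25).

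By substrate, the calls at 72 h against 12 h D-F are given as counts, beside 26.2% of all genes higher and 34.5% lower, and classes this small are not set apart from that share. Beside the classes already given, 4 of 9 carriers of large neutral amino acids fell and 1 rose, 4 of 11 of small neutral amino acids and glutamine fell and 3 rose, 2 of 8 of glycine and proline fell and 2 rose, 1 of 6 acidic carriers fell and 2 rose, and both cystine light chains were called lower, Slc7a11 with dim means. Of 8 genes classed as orphans, the nucleobase carrier Slc43a3 among them, 3 fell and 2 rose, and of 3 monoamine carriers 1 fell. The orphan Slc6a16 fell by 0.50, and without array A of 72 h the value was -0.32 (adjusted p = 0.089), which was not called. Of the 3 opposite-strand genes Slc36a1os was called lower, and so was Slc7a6os on the brighter of its probe sets alone. By position only Slc6a19os, which is not among those called, overlaps its carrier gene, while Slc7a6os and Slc36a1os lie beside theirs. Probe sets were taken as annotated, and which strand they read was not tested.

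Calls were counted by brightness. A mean level at or above the 30th percentile of all genes was held by 40 members, of which 29 were called at 72 h, beside 71.5% of all genes that bright. Of the 23 dimmer members 8 were called, beside 35.2% of all genes below that percentile, so both counts lay near the share of all genes. Of the 37 genes called at 72 h, Slc6a14, Slc7a11 and Slc7a15 had a dim mean. Slc6a11, Slc6a18, Slc6a20a, Slc7a12 and Slc7a14 had group means under 4.73 throughout, so their changes have no size here. Slc6a12 was dim in all groups but 8 h, where it averaged 4.75.

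Enzymes of amino acid metabolism changed over the same late interval. Of 24 measured genes of amino acid synthesis and breakdown (32 listed), 20 were lower and 2 higher at 72 h than in 12 h D-F. Of all genes, 34.5% were lower and 26.2% higher. Cth, which makes cysteine, fell by 1.65 (SE 0.14, adjusted p = 4.56e-10) and Psph, the last enzyme of serine synthesis, fell by 1.38 (SE 0.11, adjusted p = 8.11e-11). The arginases Arg2 and Arg1, which consume the arginine that CAT and y+LAT carriers move, rose by 3.74 (SE 0.25, adjusted p = 4.77e-12) and 2.29 (SE 0.15, adjusted p = 2.96e-12). Among the 16 response genes, 7 were lower and 1 higher, beside the same shares of all genes. Chac1 fell by 2.51, Trib3 fell by 1.98 and Stc2 fell by 1.74, while Atf3 rose by 1.45.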

How the data were processed

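The 30 arrays, 1 sample each, were read from the deposited table of log2 intensities. The authors' background correction, probe summary and normalisation are not given in the sources used here; limma 3.8.3 was used, per the submitters' processing notes. Of 45101 probe sets, 64 controls, 9160 with no symbol and 932 with several (1 of them of a transporter) were left out, which left 34945 probe sets and 18193 genes, each at its brightest probe set.

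Groups were fitted with limma 3.58.1 in R 4.3.3 (lmFit, eBayes, no block), two-sided, with Benjamini-Hochberg adjustment over all genes. None of the 30 within-group array pairs was identical. Array values are given for members changed by at least 1 with no overlap in 24 h A-C against 8 h or 72 h against 12 h D-F, and other members shown in full were chosen after their values were seen. From other lists up to 4 genes are named, those with the largest change at 72 h. Members and lists were chosen with earlier results of these data known. Alternatives were centring, quantile normalisation, a filter on dim genes, the mean of all probe sets, probe types left out, array weights, other priors, fewer arrays, letters together, the letter as a block and each array left out. The fit was tested on simulated data. Promoter windows were read from RefSeq tables (Python 3.11.15, pandas 2.3.3). Numbers of arrays limit the precision.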

Additional observations from a re-analysis of the deposited data

Results flagged for a closer look

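The change from 12 h to 24 h differed between arrays D-F and arrays A-C in 16 transporter genes by limma's interaction term. Each difference is the D-F change minus the A-C change on the log2 scale. The measured changes were negative in D-F and positive in A-C for the glycine carrier Slc6a9 (difference -1.37, adjusted p = 6.94e-05), the arginine carriers Slc7a1 (-1.25, adjusted p = 8.95e-05) and Slc7a3 (-1.23, adjusted p = 0.00416), the exchangers Slc1a4 (-1.09, adjusted p = 0.000375) and Slc7a7 (-1.03, adjusted p = 0.0024), and LAT1, Slc7a5 (-0.56, adjusted p = 0.0383). The call for Slc7a5 was lost when any 1 of 10 arrays was left out. The cystine exchanger Slc7a11 was called too (fitted value -1.48, adjusted p = 2.94e-05), but that value is no size, since its means were dim in 24 h D-F (3.75), 12 h D-F (4.09) and 12 h A-C (4.21), and only 24 h A-C (5.35) lay above 4.73.

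Smaller negative differences were called for Slc38a1 (-0.80), Slc6a15 (-0.63), Slc1a5 (-0.62), the neutral carrier Slc43a2 (-0.51), Slc7a6 (-0.50) and the system A carrier Slc38a4 (-0.42). The other probe sets of 4 of these were not called, with -0.19 for Slc38a1, -0.10 for Slc1a5, -0.08 for Slc7a6 and 0.17 for Slc38a4. Positive differences were called for the taurine carrier Slc6a6 (0.86) and the glutamine carrier Slc38a3 (0.50). The other probe set of Slc38a3 was not called (0.09), and 1 of the 3 others of Slc6a6 was (0.94). The test also called Slc7a12 (fitted value 0.34), whose group means were all dim, so that value has no size. Which of the differences between the array sets these follow was not tested.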

How the results depend on the processing

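The larger called changes of single genes, 148 results, were read again under the alternatives, which gave 3444 readings. Of these readings, 3413 kept direction and call, 29 lost the call and 2 reversed. Direction and call held throughout for 129 results. The reversals were Slc6a9 in 24 h A-C against 8 h, -0.007 with all letters of a time in 1 group, and Slc38a1 in 12 h D-F against 12 h A-C, -0.12 with probe types that can cross-hybridise left out. Smaller called changes were read singly only after centring and after quantile normalisation. Of the 37 calls at 72 h against 12 h D-F, 33 kept direction and call under either scaling. Centring raised the count of genes called to 39 in 24 h A-C against 8 h and to 29 in 24 h D-F against 12 h D-F. Array weights gave 15 in 12 h A-C against 8 h (main count 9) and 15 in 72 h against 60 h (main count 7). For 72 h against 60 h the fit of 1 array set gave 4. The causes were not tested. With arrays left out in turn, 12 h A-C against 8 h gave 3 to 9 and 72 h against 60 h gave 4 to 17, the lowest without array A and the highest without array C of 60 h. Over the other comparisons these counts stayed within 1.5 times the main count.

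Same-letter arrays correlated at -0.17 to 0.54, above 0.1 in 14 of 39 pairs. All 3 letters were above 0.1 in 3 of the 6 pairs of groups from 36 h on (48 h with 36 h, 60 h with 36 h, and 72 h with 48 h), none of them compared here, and in none of the other 7 pairs of groups. In 72 h against 60 h, the one comparison here between groups from 36 h on, they ran from -0.17 to 0.29, so the letter was not taken to pair its samples. The letter as a replicate block gave 13 calls in 72 h against 60 h, and changed no other count by over 1.5 times. Detection calls were not used here, so dim levels are bounded by array quartiles alone.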

Other observations

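Genes around the carriers were also read at 72 h against 12 h D-F. Of 27 measured genes of amino acid sensing at the lysosome (29 listed), 8 rose and 9 fell. These counts lay near the share of all genes, 26.2% higher and 34.5% lower. Sesn3, a relative of the leucine sensor, rose by 1.33 (SE 0.07, limma adjusted p = 5.06e-14), and Rragd, a GTPase that recruits mTORC1 to the lysosome, rose by 1.20 (SE 0.10, adjusted p = 1.22e-10). The arginine sensor Castor1 fell by 1.02 (SE 0.08, adjusted p = 2.34e-11), while Castor2 rose by 0.80. Slc38a9, the arginine sensor among the transporter genes, averaged 7.77 at 72 h and 7.74 in 12 h D-F and was not called.

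Of 21 measured carriers of amino acids and peptides from other families (22 listed), 6 rose and 8 fell. These counts too lay near the share of all genes (26.2% higher and 34.5% lower). The mitochondrial ornithine carrier Slc25a15 fell by 0.96, and the sideroflexin Sfxn3 rose by 0.82. The lysosomal cystine carrier Ctns rose by 0.72 and the peptide carrier Slc15a2 by 0.70. These genes were named by the size of their change.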
